A study of Homo sapiens with 18 samples.

Results

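The 6 libraries described here carry the label XG1, the name of a human line of multiple myeloma, a plasma cell cancer. They are 3 libraries of cells given 100 nM YKL-5-124 for 6 h and 3 libraries of cells given the solvent DMSO for 6 h, chosen by those labels out of 18 libraries in all. YKL-5-124 is a covalent inhibitor of the kinase CDK7, and the series title names CDK7 inhibition in resistant myeloma lines. The other 12 libraries, 3 of XG1 at 1000 nM and 9 of the myeloma line AMO1 under the same 3 treatments, were used for the error estimate and for side-by-side values. Each group is 1 cell line in plate culture, and the labels do not say that the 3 replicates were separate cultures, so p-values rest on differences between libraries that may be technical repeats.

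CDK7 forms a trimer with cyclin H (CCNH) and the assembly factor MNAT1. As part of the general transcription factor TFIIH the trimer phosphorylates the tail of RNA polymerase II near promoters, and outside TFIIH it activates the kinases that drive the cell cycle. Several transcription factors act downstream of growth and stress signals. E2F factors switch on genes of DNA replication, MYC acts on genes of growth and ribosome making, and ATF4 acts on genes of amino acid supply.

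RNA was read by a 3′ end sequencing method, and the deposited values are taken as FPKM from the name of the tool that made them. FPKM divides fragments by the length of the transcript and the size of the library, but how these values were scaled is not given. The values are not counts, so the depth of each library is unknown. At 1 FPKM or more stood 10276 to 10562 genes in the 100 nM libraries and 10112 to 10532 in the DMSO libraries. Log2 changes are 100 nM minus DMSO on the log2(FPKM + 1) scale, which understates the change of low genes, and are given with their SE. Adjusted p-values are from limma with Benjamini-Hochberg adjustment over 12204 genes, and a gene is said to rise, fall or be called where that value was under 0.05. A call is named stable where it was also made without each of the 6 libraries in turn, after subtracting each library's median, with a pseudocount of 0.1 or 5 in place of 1, and with only the 6 libraries in the fit.

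The label was checked against defining markers. Of 13 plasma cell markers, 8 were below 1 FPKM in all 6 libraries and 1 was at 10 FPKM or more in all 6, XBP1, a secretory cell regulator. The markers below 1 FPKM included IRF4 (0.169 ± 0.0605 FPKM at 100 nM and 0.171 ± 0.0442 FPKM in DMSO), PRDM1 (0.256 ± 0.137 FPKM at 100 nM and 0.170 ± 0.0490 FPKM in DMSO) and CD38 (0.172 ± 0.124 FPKM at 100 nM and 0.0943 ± 0.0136 FPKM in DMSO). The plasma cell marker SDC1 averaged 9.07 ± 5.49 FPKM at 100 nM and 12.1 ± 2.22 FPKM in DMSO. JCHAIN averaged 4.1 FPKM at 100 nM and 2.8 FPKM in DMSO, and MZB1 2.8 and 3.3 FPKM. Of 18 erythroid markers, 12 reached 10 FPKM in all 6 libraries, and the sum of the 18 was 4447 to 4541 FPKM in the 100 nM libraries and 4689 to 4828 FPKM in the DMSO libraries. Erythroid markers that did not reach it included ALAS2 (2.33 FPKM at 100 nM and 2.59 FPKM in DMSO) and EPOR (1.12 and 1.49 FPKM). AHSP (0.11 FPKM at 100 nM and 0.59 FPKM in DMSO) and SLC4A1 (0.11 and 0.12 FPKM) were lower still. Most of these marker levels go against the label, and the term XG1 libraries stands below for libraries that carry it. Of 10 T cell, 11 myeloid and 11 stromal and epithelial markers, 8, 7 and 6 were below 1 FPKM in all 6 libraries. At 10 FPKM or more in all 6 were 0, 2 (ITGAM and CD33) and 3 (VIM, KRT18 and EPCAM) of them. The stromal and epithelial markers summed to 310 to 374.5 FPKM at 100 nM and 290 to 408 FPKM in DMSO. Only 3, 3 and 5 members of these lists were tested, and none of those was called. The sum of the 13 plasma cell markers was 45.7 to 66.8 FPKM in the 100 nM libraries and 72.4 to 76.2 FPKM in the DMSO libraries.

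Across the XG1 libraries 807 of 12204 genes (6.61%) were called at 100 nM, 321 higher (2.63%) and 486 lower (3.98%). The stable calls numbered 106 higher (0.869%) and 153 lower (1.25%). The values of the groups did not overlap for 317 of the risers and 481 of the fallers, beside 11.3% of all genes tested that lay higher without overlap and 16.1% that lay lower. Risers had a median level of 5.73 FPKM in the 100 nM libraries, against 2.32 FPKM in the DMSO libraries, and fallers had 11.1 FPKM in the 100 nM libraries, against 20.5 FPKM in the DMSO libraries. Leaving out 100 nM replicate 1 or 3 gave 416 or 464 calls, and leaving out DMSO replicate 1, 2 or 3 gave 465, 396 or 524, and rises outnumbered falls without DMSO replicate 1 (244 and 221) and when 100 nM replicate 3 was left out (239 and 225). Centring each library on its median gave 1499 calls and quantile normalization 1878. In bulk RNA, fewer cells of a type and less RNA per cell cannot be told apart.

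**Figure D1:**
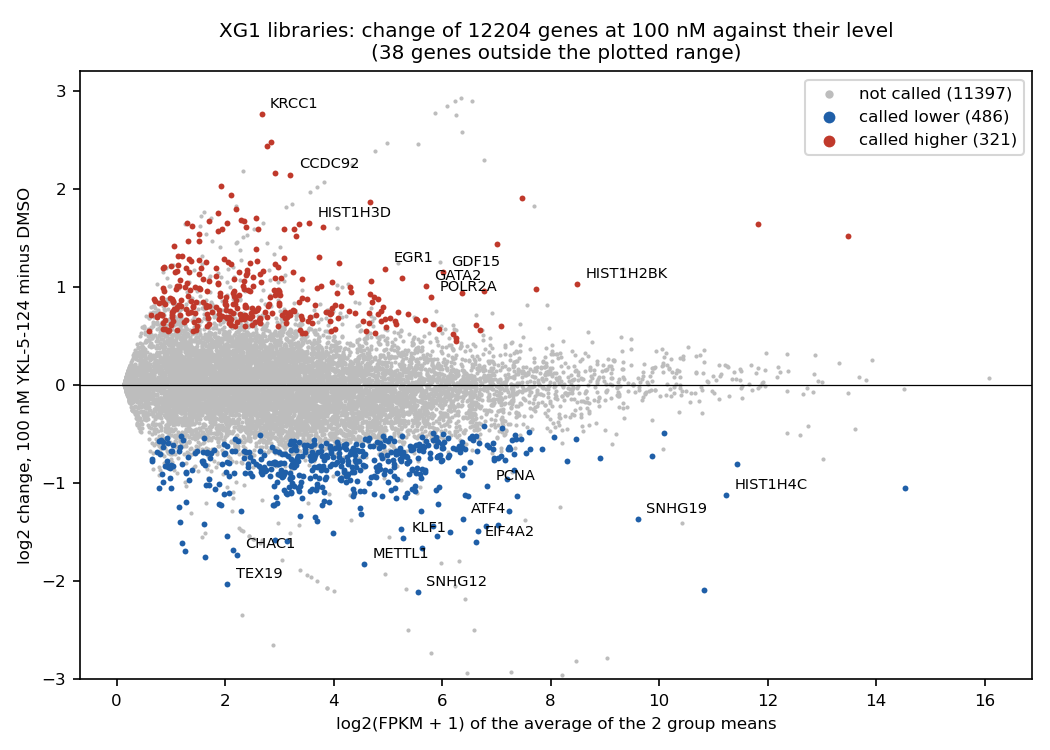
Each point is a gene, with the log2 of the average FPKM of the groups plus 1 on the x axis and the log2 change (100 nM minus DMSO) on the y axis. Blue points (486 called lower) reach high levels, red points (321 called higher) lie mostly at low levels, and 38 genes, 35 of them with small RNA symbols, fall outside the plotted range.

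The split between rises and falls moved with the level of the gene. Among 5585 genes averaging under 5 FPKM, 3.29% were called higher and 1.7% lower. From 5 to under 20 FPKM, 2.54% of 3576 genes were called higher and 5.09% lower. From 20 to under 100 FPKM, 1.67% of 2210 genes were called higher and 7.56% lower, and at 100 FPKM or more 1.08% of 833 genes were called higher and 5.04% lower. Rises therefore outnumbered falls only in the lowest of these classes. The counts of called list members below stand beside 2.63% higher and 3.98% lower over all genes. In the classes at 5 FPKM or more, 5.04% to 7.56% of genes were called lower, and list shares near these do not set a list apart.

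**Figure D2:**
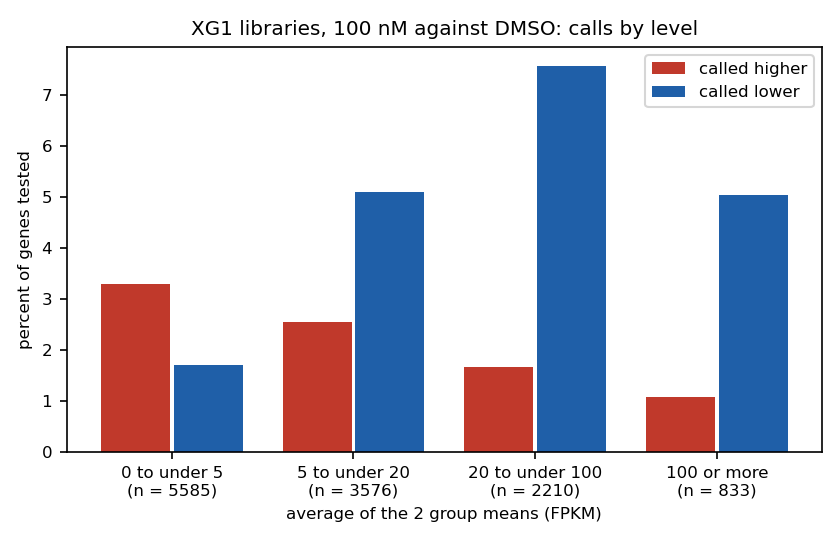
Percent of tested genes called higher (red) or lower (blue) at 100 nM against DMSO, in 4 classes of average FPKM. Red bars shrink step by step with level, and the blue bar is highest, at 7.56%, from 20 to under 100 FPKM.

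Host genes of small nucleolar RNAs carry in their introns the guide RNAs that modify ribosomal RNA. Of 22 tested, 10 fell (45.5%, beside 3.98% of all genes, 7 stable) and none rose. The median log2 change was -0.55, beside -0.01 over all genes tested. SNHG12 had 14.3, 19.2 and 16.6 FPKM in the 100 nM libraries, against 76.98, 66.9 and 82.4 FPKM in the DMSO libraries. SNHG7 had 37.2, 30.99 and 39.8 FPKM in the 100 nM libraries, against 99.1, 114 and 96.9 FPKM in the DMSO libraries. SNHG19 had 393, 389.6 and 527 FPKM in the 100 nM libraries, against 997, 1236 and 1129.8 FPKM in the DMSO libraries. All 3 hosts were lower in every 100 nM library than in any DMSO library. The fit gave log2 change -2.11 ± 0.20, adjusted p = 8.18e-06 for SNHG12, log2 change -1.50 ± 0.18, adjusted p = 3.80e-05 for SNHG7 and log2 change -1.37 ± 0.22, adjusted p = 7.35e-04 for SNHG19. SNHG3 (-1.67), SNHG4 (-1.39), SNHG1 (-1.13) and TAF1D (-1.22), which also encodes a subunit of an RNA polymerase I factor, were the other stable calls. SNHG8 (-0.81), GAS5 (-0.74) and SNHG16 (-0.62) fell without being stable. The other hosts were not called, among them SNHG5 (0.02), SNHG6 (0.12), ZFAS1 (-0.05) and DANCR (-0.33). The sources used here do not say whether the reads were counted by strand, which leaves the level of any gene that overlaps another uncertain.

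**Figure D3:**
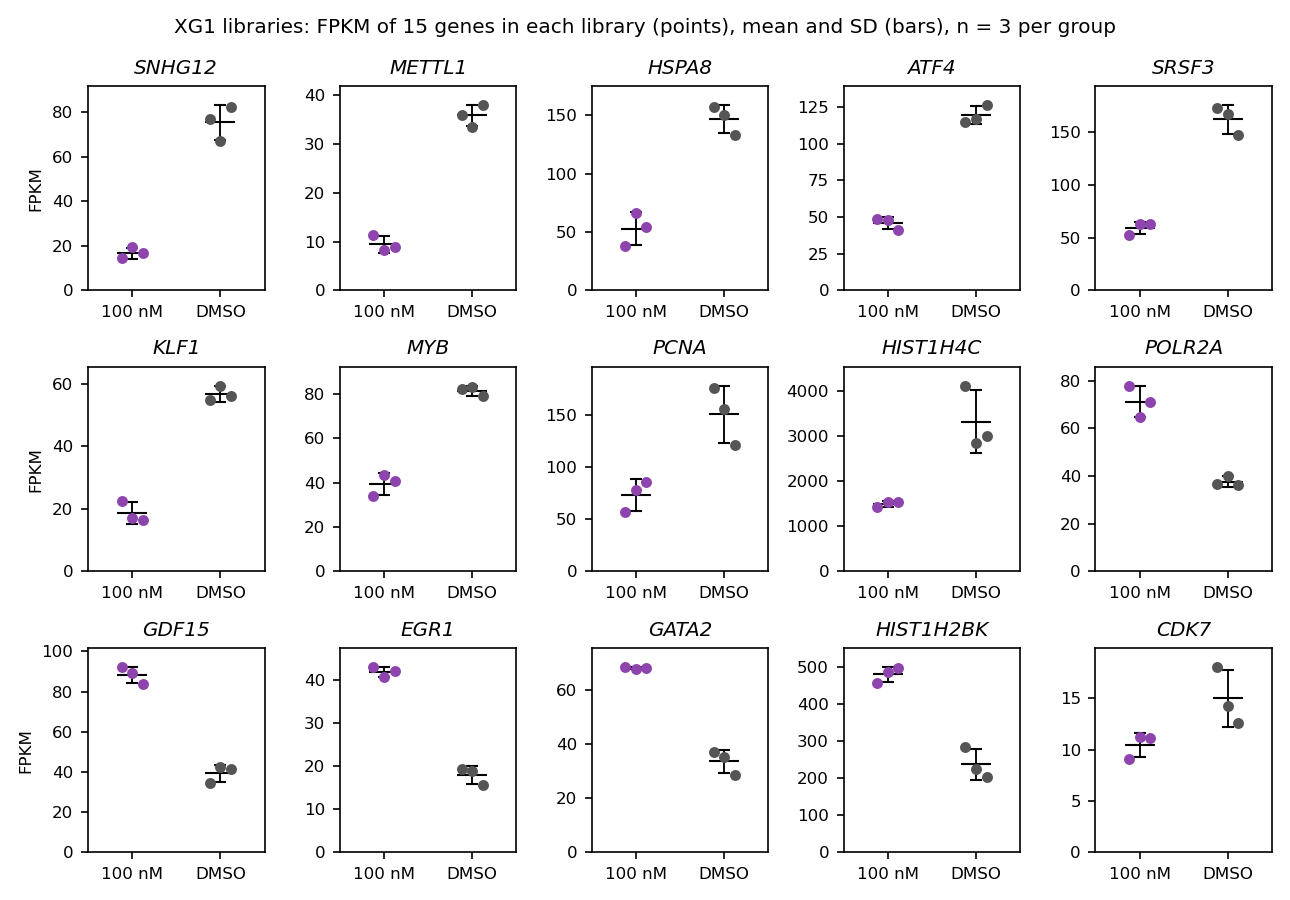
FPKM of 15 genes in each XG1 library (points) with mean and SD (bars, n = 3), the 100 nM group left of the DMSO group. SNHG12 to HIST1H4C in the upper panels are lower in all 3 libraries at 100 nM, POLR2A, GDF15, EGR1, GATA2 and HIST1H2BK are higher in all 3, and CDK7 was not called.

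SR protein and hnRNP genes of pre-mRNA splicing fell in part. SR proteins and hnRNPs are RNA-binding proteins that steer exon choice, and many limit their own level by splicing. Of 51 tested, 8 fell (15.7%, beside 3.98% of all genes, 6 stable) and none rose, with a median of -0.27. SRSF3, a small SR protein, had 52.7, 62.997 and 62.6 FPKM in the 100 nM libraries, against 173, 167 and 147 FPKM in the DMSO libraries. HNRNPDL had 67.5, 73.4 and 69.99 FPKM in the 100 nM libraries, against 209, 189.7 and 174 FPKM in the DMSO libraries. RBM39, a partner of the splicing factor U2AF, had 46.6, 59.3 and 59.3 FPKM in the 100 nM libraries, against 125, 123 and 116 FPKM in the DMSO libraries. The libraries did not overlap for any of these 3 genes, and the fits gave log2 change -1.44 ± 0.13, adjusted p = 8.18e-06 for SRSF3, log2 change -1.42 ± 0.15, adjusted p = 9.88e-06 for HNRNPDL and log2 change -1.13 ± 0.18, adjusted p = 7.14e-04 for RBM39. SRSF6 (-0.93), SRSF7 (-0.92) and PNISR (-0.87) fell as well, while SRSF4 (0.16), SRSF9 (0.07), HNRNPK (0.18) and HNRNPU (0.08) were not called. The number that fell was 14 after quantile normalization and 16 after median centring.

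Other RNA-binding genes stood among the largest stable falls of genes averaging at least 10 FPKM in a group. DDX17, an RNA helicase, had 26.04, 32.1 and 31.01 FPKM in the 100 nM libraries, against 87.5, 88.2 and 88.5 FPKM in the DMSO libraries, with log2 change -1.54 ± 0.18, adjusted p = 3.25e-05. EIF4A2, the helicase of translation initiation, had 38.3, 53.4 and 53.7 FPKM in the 100 nM libraries, against 164, 147 and 132 FPKM in the DMSO libraries, with log2 change -1.60 ± 0.15, adjusted p = 8.18e-06. FUBP1, a single-strand DNA-binding protein first described as an activator of MYC, had 34.8, 32.2 and 23.03 FPKM in the 100 nM libraries, against 86.3, 78.02 and 80.8 FPKM in the DMSO libraries, with log2 change -1.43 ± 0.18, adjusted p = 5.70e-05. In each of these 3 genes the highest 100 nM value lay below the lowest DMSO value, which was a condition of their choice. JMJD6, an oxygenase that modifies splicing proteins (-1.51), and RBM12 (-1.59) fell too. The cap-binding factor EIF4E fell by 0.89 on the log2 scale. Of 48 translation initiation and elongation factors in all, 4 fell (8.33%, beside 3.98% of all genes) and none rose. The number was 2 without 100 nM replicate 1 or 3 or DMSO replicate 1 or 2 and 7 after quantile normalization.

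ATF4 is the transcription factor that cells make when amino acids run short or the endoplasmic reticulum is stressed. With partners such as DDIT3 (CHOP) it reads genes of amino acid uptake and synthesis. Of 28 tested genes of this programme 11 fell (39.3%, beside 3.98% of all genes, 6 stable) and none rose, with a median of -0.47. DDIT4, a stress-induced inhibitor of the growth kinase complex mTORC1, had 17.3, 17.9 and 21.98 FPKM in the 100 nM libraries, against 63.4, 52.5 and 47.7 FPKM in the DMSO libraries. DDIT3 had 14.7, 13.4 and 12.8 FPKM in the 100 nM libraries, against 28.7, 26.9 and 27.8 FPKM in the DMSO libraries. SLC38A2, a transporter of neutral amino acids, had 10.2, 14.5 and 12.8 FPKM in the 100 nM libraries, against 26.1, 25.4 and 24.1 FPKM in the DMSO libraries. Every 100 nM value of these 3 genes was below every DMSO value, with log2 change -1.47 ± 0.22, adjusted p = 3.95e-04 for DDIT4, log2 change -0.98 ± 0.14, adjusted p = 3.42e-04 for DDIT3 and log2 change -0.97 ± 0.16, adjusted p = 0.00103 for SLC38A2. ATF4 itself fell by 1.37, CHAC1, an enzyme that breaks down glutathione, by 1.73, and JDP2, a repressor of the same transcription factor class, by 0.69 on the log2 scale. Not called were the asparagine synthetase gene ASNS (-0.38), the serine synthesis gene PHGDH (-0.37), ATF3 (-0.09), SESN2 (-0.10) and PPP1R15A (0.04), a phosphatase subunit that ends the stress signal. Across settings the count was 7 without 100 nM replicate 1 or 3 or DMSO replicate 1.

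The 2 promoters below belong to a faller of the amino acid programme and a faller of the endoplasmic reticulum stress response, and are shown because both hold the amino acid response element. The letters searched were TGATGNAAN on both strands in the 300 bases that RefSeq annotation places around each start site, from build GRCh38.p14. Capitals mark the matches to this element and, in HERPUD1, also to an E-box (CACGTG) and a TATA box (TATAAA). CHAC1 lies at chr15:40953221-40953520 on the plus strand and HERPUD1 at chr16:56931892-56932191 on the plus strand.
CHAC1: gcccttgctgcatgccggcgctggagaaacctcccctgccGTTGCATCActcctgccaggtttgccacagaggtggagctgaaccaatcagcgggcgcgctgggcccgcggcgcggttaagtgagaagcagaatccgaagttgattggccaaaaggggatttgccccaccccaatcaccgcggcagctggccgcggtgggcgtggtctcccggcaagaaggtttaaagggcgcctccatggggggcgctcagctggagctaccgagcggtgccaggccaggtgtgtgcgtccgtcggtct
HERPUD1: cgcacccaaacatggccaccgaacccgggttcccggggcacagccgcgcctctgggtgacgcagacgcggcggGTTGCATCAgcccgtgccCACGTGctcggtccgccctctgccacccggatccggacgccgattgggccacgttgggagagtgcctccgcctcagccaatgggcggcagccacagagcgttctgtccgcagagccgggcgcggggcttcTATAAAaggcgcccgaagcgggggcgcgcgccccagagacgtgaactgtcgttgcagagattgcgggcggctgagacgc
In CHAC1 the match starts at position -210 from the start site, and in HERPUD1 at -177. The element was found in 5 of 23 promoters of the amino acid programme (21.7%), in 14 of 403 promoters of called fallers (3.47%) and in 1 of 233 promoters of called risers (0.429%). Among all tested genes it was in 155 of 9520 promoters (1.63%), and among all 27305 promoters of the table in 3.67%. Where the average of the group means was at least 10 FPKM, it was in 6 of 261 promoters of fallers (2.3%). At that level it was in 0 of 53 promoters of risers and in 66 of 3752 of all tested genes (1.76%). The programme was chosen for a function that ATF4 is known to serve, so its share describes the list and not the treatment. A match is a description of letters and not of binding.

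HERPUD1, which helps to clear misfolded proteins from the endoplasmic reticulum, had 7.09, 8.85 and 6.27 FPKM in the 100 nM libraries, against 19.4, 16.4 and 13.4 FPKM in the DMSO libraries. HSPA5, the main chaperone of that compartment, had 110.2, 99.2 and 88.9 FPKM in the 100 nM libraries, against 203, 184 and 193 FPKM in the DMSO libraries. Both fell in all 3 libraries, with log2 change -1.05 ± 0.17, adjusted p = 7.20e-04 for HERPUD1 and log2 change -0.95 ± 0.17, adjusted p = 0.00145 for HSPA5. They were the only fallers (8.33%, beside 3.98% of all genes) among 24 tested chaperones and unfolded protein genes, whose median was 0.11, and none rose. The falls in that list numbered 4 after median centring. In the cytosol HSPA8 fell by 1.49 on the log2 scale. Of 28 cytosolic chaperones 3 fell (10.7%, beside 3.98% of all genes) and 1, DNAJB4, rose (3.57%, beside 2.63%), which was not stable. The falls numbered 1 without 100 nM replicate 1 or DMSO replicate 1 or 2, and the rises 0 without 100 nM replicate 2 or 3 or DMSO replicate 1 or 3 or with only the 6 libraries in the fit or with low genes kept in the test or with a minimum mean of 5 FPKM or with a pseudocount of 0.1 and 3 after quantile normalization.

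RNA polymerases I and III make ribosomal RNA, tRNA and other short RNAs. Of 23 tested subunits and factors, 7 fell (30.4%, beside 3.98% of all genes, 3 stable) and none rose, with a median of -0.46. POLR3D, a polymerase III subunit, had 11.2, 12.7 and 13.6 FPKM in the 100 nM libraries, against 26.04, 22.7 and 23.8 FPKM in the DMSO libraries. POLR3G had 3.42, 4.23 and 3.997 FPKM in the 100 nM libraries, against 8.32, 7.62 and 8.94 FPKM in the DMSO libraries. The libraries of the groups were apart for both, with log2 change -0.90 ± 0.16, adjusted p = 0.00203 for POLR3D and log2 change -0.93 ± 0.20, adjusted p = 0.00889 for POLR3G. TAF1D, named above as a host gene, was the third stable faller. The count became 3 without 100 nM replicate 1 or 3 or DMSO replicate 1 or 2, 4 with only the 6 libraries in the fit or with low genes kept in the test and 11 after median centring or after quantile normalization.

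Genes of ribosome assembly in the nucleolus followed the same direction. Of 63 tested 12 fell (19%, beside 3.98% of all genes, 4 stable) and none rose, with a median of -0.39. UTP18, part of the complex that processes the small subunit precursor, had 12.3, 10.3 and 14.3 FPKM in the 100 nM libraries, against 29.8, 28.1 and 33.95 FPKM in the DMSO libraries. LYAR, a nucleolar growth regulator, had 21.7, 32.9 and 30.9 FPKM in the 100 nM libraries, against 61.7, 47.95 and 52.1 FPKM in the DMSO libraries. UTP18 and LYAR were lower in every 100 nM library, with log2 change -1.26 ± 0.20, adjusted p = 7.35e-04 and log2 change -0.91 ± 0.19, adjusted p = 0.00578. GNL3 (-1.09) and PPAN (-0.76) were the remaining stable calls. METTL1, which methylates tRNA, fell by 1.82 on the log2 scale and was the 1 stable call among 43 tRNA modification genes. Of these 4 fell (9.3%, beside 3.98% of all genes) and none rose. The tRNA modification falls numbered 1 without 100 nM replicate 1 or 3, 2 without DMSO replicate 1 or 2 or with low genes kept in the test, 8 after quantile normalization and 9 after median centring. The ribosome assembly falls numbered 4 without 100 nM replicate 1 or DMSO replicate 2, 5 when DMSO replicate 1 was left out, 6 without 100 nM replicate 3, 7 with low genes kept in the test and 22 after quantile normalization.

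By contrast, the proteins of the cytosolic ribosome itself stayed near the median of all genes. Of 82 tested 1 fell (1.22%, beside 3.98% of all genes) and none rose, with a median of 0.03, and 45 had positive changes. Of 76 mitochondrial ribosomal proteins 5 fell (6.58%, beside 3.98% of all genes), none rose and the median was -0.25, with MRPL27 (-1.28) the 1 stable call. The mitochondrial falls numbered 2 without 100 nM replicate 1 or DMSO replicate 1, 3 without 100 nM replicate 2 or 3 or DMSO replicate 2 or 3 or with low genes kept in the test, 8 with only the 6 libraries in the fit and 11 after quantile normalization, and the 1 cytosolic fall became 0 without 100 nM replicate 1 or DMSO replicate 1 or 2 or with low genes kept in the test and 2 without 100 nM replicate 2 or after median centring or after quantile normalization. Of 79 respiratory chain genes none was called, and 62 had positive changes with a median of 0.16.

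The promoter of UTP18 is shown because it carries 2 E-boxes, the letters CACGTG that MYC and related factors bind, in capitals. It lies at chr17:51260296-51260595 on the plus strand of GRCh38.p14.
UTP18: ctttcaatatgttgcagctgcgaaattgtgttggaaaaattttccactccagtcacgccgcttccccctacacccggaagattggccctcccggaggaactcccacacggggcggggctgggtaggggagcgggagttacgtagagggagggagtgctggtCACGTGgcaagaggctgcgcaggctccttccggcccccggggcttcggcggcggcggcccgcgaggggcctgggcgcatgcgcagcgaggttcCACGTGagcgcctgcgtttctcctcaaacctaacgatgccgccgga
The E-boxes start at positions -89 and 4 from the start site. An E-box was found in 20 of 56 promoters of the ribosome assembly list (35.7%), beside 10.6% of the promoters of all tested genes, 13.4% of those of called fallers, 11.6% of those of called risers and 7.43% of all promoters in the table. This list was chosen for a function that MYC is known to serve, so its share describes the list and not the treatment.

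MYC itself had 26.7, 26.4 and 26.3 FPKM in the 100 nM libraries, against 77.9, 62.1 and 37.1 FPKM in the DMSO libraries. The DMSO values spread over more than the gap between the groups, and the call (log2 change -1.06 ± 0.29, adjusted p = 0.0341) was not stable. The call of MYC ended without 100 nM replicate 1, 2 or 3 or DMSO replicate 1 or 2, with low genes kept in the test and with spike-in scaling (adjusted p up to 0.147).

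DNA replication genes, which E2F factors switch on before S phase, fell in part. Of 45 tested 12 fell (26.7%, beside 3.98% of all genes, 4 stable) and none rose, with a median of -0.41, and 38 had negative changes. PCNA, the sliding clamp, had 56.6, 78.7 and 86.2 FPKM in the 100 nM libraries, against 176, 156 and 122 FPKM in the DMSO libraries. TIPIN, which protects stalled forks, had 13.4, 15.3 and 11.3 FPKM in the 100 nM libraries, against 33.6, 32.2 and 22.4 FPKM in the DMSO libraries. ORC2, part of the origin recognition complex, had 5.32, 5.05 and 5.56 FPKM in the 100 nM libraries, against 8.47, 9.33 and 9.99 FPKM in the DMSO libraries. For PCNA, TIPIN and ORC2 no 100 nM value reached the DMSO range, with log2 change -1.03 ± 0.20, adjusted p = 0.00373, log2 change -1.08 ± 0.20, adjusted p = 0.00229 and log2 change -0.70 ± 0.15, adjusted p = 0.00787. MCM4, a helicase subunit, was the other stable faller (-0.71). MCM3 had 25.8, 33.3 and 26.8 FPKM in the 100 nM libraries, against 54.1, 59.3 and 64.8 FPKM in the DMSO libraries, with log2 change -1.03 ± 0.23, adjusted p = 0.0106. The call of MCM3 ended without 100 nM replicate 1 (adjusted p = 0.0507). This count was 4 without 100 nM replicate 1, 6 without DMSO replicate 1 or 2, 19 after quantile normalization and 20 after median centring.

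E2F1, the activating factor of this list, had 4.60, 2.70 and 3.19 FPKM in the 100 nM libraries, against 6.39, 7.67 and 8.03 FPKM in the DMSO libraries, with log2 change -0.91 ± 0.24, adjusted p = 0.0293. The call of E2F1 ended without 100 nM replicate 2 or 3 or DMSO replicate 1, 2 or 3, with a pseudocount of 5 and with low genes kept in the test (adjusted p up to 0.107). The promoter of MCM3, at chr6:52284693-52284992 on the minus strand of GRCh38.p14, is shown because it holds the E2F site, searched as TTTNGCGC on both strands and printed in capitals.
MCM3: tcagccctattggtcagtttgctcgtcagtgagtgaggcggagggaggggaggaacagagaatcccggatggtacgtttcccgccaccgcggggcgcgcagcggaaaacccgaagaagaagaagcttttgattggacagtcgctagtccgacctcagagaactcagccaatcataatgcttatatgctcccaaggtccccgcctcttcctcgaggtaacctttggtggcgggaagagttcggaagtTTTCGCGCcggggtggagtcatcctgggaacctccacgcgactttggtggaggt
The match starts at position -4. The site was in 15 of 39 promoters of the replication list (38.5%), beside 3.18% of the promoters of all tested genes, 4.96% of those of called fallers, 3% of those of called risers and 1.83% of all promoters in the table. The list was chosen for a function that E2F factors are known to serve, so its share describes the list and not the treatment.

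Supply of nucleotides and repair moved the same way as replication. Of 25 genes of a nucleotide synthesis list, which also holds the DNA repair gene UNG, 6 fell (24%, beside 3.98% of all genes). Of these 2 were stable, UNG and RRM2, none of the list rose, and its median was -0.40. UNG, a glycosylase that removes uracil from DNA, had 17.1, 16.8 and 19.3 FPKM in the 100 nM libraries, against 34.97, 38.4 and 31.5 FPKM in the DMSO libraries. RRM2, the small subunit of ribonucleotide reductase, had 18.4, 20.3 and 20.4 FPKM in the 100 nM libraries, against 37.2, 37.4 and 34.8 FPKM in the DMSO libraries. Both were lower in every 100 nM library (log2 change -0.94 ± 0.15, adjusted p = 6.35e-04 for UNG and log2 change -0.85 ± 0.14, adjusted p = 7.46e-04 for RRM2). The falls in the nucleotide synthesis list numbered 2 without 100 nM replicate 1 or DMSO replicate 1 or 2, 3 without 100 nM replicate 3 or DMSO replicate 3 or with low genes kept in the test and 12 after quantile normalization. Among 25 DNA repair and checkpoint genes 4 fell (16%, beside 3.98% of all genes) and none rose. The stable ones were EXO1 (-0.94), a nuclease, and MSH6 (-0.79), a mismatch sensor. The number that fell was 2 without 100 nM replicate 1 or 3 or DMSO replicate 1 or 2 or with low genes kept in the test, 7 after quantile normalization and 8 after median centring.

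Genes of G2 and mitosis showed a low median with few calls. Of 32 tested 5 fell (15.6%, beside 3.98% of all genes), none rose and 30 had negative changes, with a median of -0.39. TOP2A, which untangles chromosomes, was the 1 stable call and had 112, 112 and 114 FPKM in the 100 nM libraries, against 210.2, 196 and 213 FPKM in the DMSO libraries. Its groups were far apart for their spread (log2 change -0.87 ± 0.17, adjusted p = 0.00445). Across settings the count was 1 without 100 nM replicate 3 or DMSO replicate 2, 2 without 100 nM replicate 1 or DMSO replicate 1, 3 without DMSO replicate 3 or with low genes kept in the test, 8 after median centring and 10 after quantile normalization. Of 15 genes for G1 cyclins, kinases and inhibitors none was called, and their median was -0.13.

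The targeted kinase and its complex were not called, though CDK7 lay lower without overlap, as did 16.1% of all genes tested. CDK7 had 9.13, 11.2 and 11.1 FPKM in the 100 nM libraries, against 18.1, 14.3 and 12.6 FPKM in the DMSO libraries, with log2 change -0.47 ± 0.20, adjusted p = 0.178. CCNH (log2 change 0.12 ± 0.28, adjusted p = 0.894) and MNAT1 (log2 change 0.23 ± 0.26, adjusted p = 0.691) had overlapping groups. Of all 10 genes for the CDK7 trimer and TFIIH none was called, and their changes ran from -0.47 to 0.59 with a median of 0.04. A transcript level does not measure inhibition of the kinase, so CDK7 checks no label here.

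Among the subunits of RNA polymerase II, 1 of 12 rose and 1 fell (8.33% each, beside 2.63% and 3.98% of all genes). POLR2A, the largest subunit, whose tail CDK7 phosphorylates, had 77.9, 64.9 and 70.9 FPKM in the 100 nM libraries, against 36.7, 40.1 and 36.1 FPKM in the DMSO libraries. POLR2H had 82.1, 78.1 and 82.02 FPKM in the 100 nM libraries, against 133, 122 and 113 FPKM in the DMSO libraries. The groups did not overlap for either subunit, with log2 change 0.90 ± 0.18, adjusted p = 0.00392 for POLR2A and log2 change -0.59 ± 0.12, adjusted p = 0.00481 for POLR2H. The list's median was -0.07.

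Kinases of elongation and of the Mediator complex differed among themselves. CDK12, which acts on elongating polymerase, had 5.26, 5.56 and 5.10 FPKM in the 100 nM libraries, against 13.8, 10.97 and 10.999 FPKM in the DMSO libraries. CDK19, a Mediator kinase, had 4.32, 5.598 and 4.55 FPKM in the 100 nM libraries, against 2.81, 1.80 and 1.61 FPKM in the DMSO libraries. CDK9, the kinase that releases paused polymerase, had 10.5, 9.08 and 9.49 FPKM in the 100 nM libraries, against 6.52, 5.75 and 3.75 FPKM in the DMSO libraries. CDK12 fell (log2 change -1.03 ± 0.17, adjusted p = 8.92e-04) and CDK19 rose (log2 change 0.94 ± 0.18, adjusted p = 0.00350), both without overlap, and CDK9 lay higher without overlap but was not called (log2 change 0.78 ± 0.31, adjusted p = 0.149). Of 23 genes of this list 1 rose (4.35%, beside 2.63% of all genes) and 3 fell (13%, beside 3.98%). The others that fell were LARP7 (-0.90), which holds the inhibitory 7SK RNA, and NELFA (-0.77), a pausing factor. The call of LARP7 ended without 100 nM replicate 1 or DMSO replicate 1 or 3 and with only the 6 libraries in the fit (adjusted p up to 0.0942). The call of NELFA ended without 100 nM replicate 2 or DMSO replicate 1 or 2 (adjusted p up to 0.0801). After median centring 6 of the list were called higher and 4 lower, and without DMSO replicate 1 the falls numbered 1.

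Immediate early genes, which cells switch on within minutes of a signal, held both directions. EGR1, a zinc finger factor, had 43.05, 40.6 and 42.1 FPKM in the 100 nM libraries, against 19.3, 18.95 and 15.5 FPKM in the DMSO libraries. JUNB, an AP-1 subunit, had 37.03, 31.7 and 32.5 FPKM in the 100 nM libraries, against 16.6, 20.8 and 15.8 FPKM in the DMSO libraries. ZFP36L2, which speeds mRNA decay, had 25.7, 31.2 and 24.5 FPKM in the 100 nM libraries, against 80.1, 70.002 and 54.02 FPKM in the DMSO libraries. EGR1 (log2 change 1.19 ± 0.25, adjusted p = 0.00633) and JUNB (log2 change 0.90 ± 0.17, adjusted p = 0.00353) rose without overlap and ZFP36L2 fell without overlap (log2 change -1.28 ± 0.18, adjusted p = 1.76e-04). Of 23 tested genes on a list of EGR, IER, KLF and other immediate early genes 3 rose (13%) and 1, ZFP36L2, fell (4.35%). The risers were EGR1, BTG2, counted again below as a p53 target, and IER3 (0.75), whose call was not stable. Of 15 AP-1 and ATF genes 3 rose (20%) and 1 fell (6.67%). Over all genes 2.63% rose and 3.98% fell. The rises of the first list numbered 5 after quantile normalization. In the AP-1 list MAFF, MAFG and the faller BATF3 were not stable, and its rises numbered 1 without 100 nM replicate 1 or 2 or DMSO replicate 2 or 3 or with low genes kept in the test. Of 24 p53 target genes 2 rose (8.33%, beside 2.63% of all genes), BTG2 (1.24), an antiproliferative gene, and GDF15 (1.15), a secreted stress cytokine. A further 3 p53 targets fell (12.5%, beside 3.98% of all genes), BBC3 (-0.73), AEN (-0.72) and ZMAT3 (-0.64), none of them stable. The count became 0 without 100 nM replicate 3 or DMSO replicate 1 or 2 or with low genes kept in the test, 1 without 100 nM replicate 1 or 2 or DMSO replicate 3 and 5 after median centring or after quantile normalization. MCL1, a survival factor with a short-lived transcript, lay higher without overlap at 114, 123 and 133 FPKM in the 100 nM libraries, against 94.4, 99.1 and 76.05 FPKM in the DMSO libraries, but was not called (log2 change 0.46 ± 0.15, adjusted p = 0.0737).

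Histone genes also went both ways. Most histone mRNAs lack a poly(A) tail and are made in S phase, while a few are polyadenylated and made throughout the cell cycle, and the method reads polyadenylated ends. HIST1H2BK had 459, 489 and 498 FPKM in the 100 nM libraries, against 286, 225 and 204 FPKM in the DMSO libraries. HIST2H2BE had 7.58, 7.01 and 8.11 FPKM in the 100 nM libraries, against 3.23, 3.16 and 2.97 FPKM in the DMSO libraries. HIST1H4C had 1420.1, 1533 and 1535 FPKM in the 100 nM libraries, against 4109.5, 2829 and 2992 FPKM in the DMSO libraries. HIST1H2BK (log2 change 1.03 ± 0.14, adjusted p = 1.25e-04) and HIST2H2BE (log2 change 1.05 ± 0.21, adjusted p = 0.00456) rose and HIST1H4C fell (log2 change -1.13 ± 0.21, adjusted p = 0.00226), each without overlap. HIST1H3D rose (1.65) and HIST1H4D fell (-1.62). Of 51 tested histone cluster genes 3 rose and 3 fell (5.88% each, beside 2.63% and 3.98% of all genes), with a median of 0.01. Histone genes are near-identical copies, so the assignment of reads among them is uncertain.

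Because erythroid genes were abundant in these libraries, their regulators were described in turn. KLF1, the factor that activates adult globin and membrane genes, had 22.7, 16.9 and 16.6 FPKM in the 100 nM libraries, against 54.8, 59.5 and 56.1 FPKM in the DMSO libraries. HEMGN, a nuclear protein of erythroid precursors, had 3.61, 6.06 and 4.96 FPKM in the 100 nM libraries, against 17.9, 11.8 and 11.9 FPKM in the DMSO libraries. MYB, a factor of proliferating progenitors, had 33.9, 43.7 and 40.6 FPKM in the 100 nM libraries, against 82.2, 83.4 and 79.1 FPKM in the DMSO libraries. All 3 fell with no overlap, and all 3 calls were stable. The fit gave log2 change -1.56 ± 0.21, adjusted p = 1.23e-04 for KLF1, log2 change -1.34 ± 0.20, adjusted p = 4.94e-04 for HEMGN and log2 change -1.04 ± 0.19, adjusted p = 0.00229 for MYB. The sum of the 18 erythroid markers, which include KLF1 and HEMGN, was also lower in every 100 nM library (4447 to 4541 FPKM) than in any DMSO library (4689 to 4828 FPKM), and its part in these changes was not tested. GATA2, which GATA1 replaces as red cells mature, had 68.6, 67.5 and 68.1 FPKM in the 100 nM libraries, against 36.95, 35.1 and 28.7 FPKM in the DMSO libraries. GATA2 rose in all 3 libraries (log2 change 1.01 ± 0.19, adjusted p = 0.00357). The call of GATA2 ended with a pseudocount of 0.1 (adjusted p = 0.0579). GATA1 had 20.02, 18.7 and 22.3 FPKM in the 100 nM libraries, against 29.9, 29.3 and 26.3 FPKM in the DMSO libraries. Its groups did not overlap, but it was not called (log2 change -0.47 ± 0.15, adjusted p = 0.0716). Of 20 erythroid and haematopoietic factors 3 fell (15%, beside 3.98% of all genes) and 1 rose (5%, beside 2.63%). Among those not called were TAL1 (0.05), LMO2 (-0.11), GFI1B (-0.11) and NFE2 (0.11).

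The products that mark the erythroid state were not called at 6 h. Of 22 globin and heme genes none was called, with a median of -0.05, and the changes ran from -0.46 to 0.44. The fetal globin gene HBG1 averaged 1272 ± 46.9 FPKM in the 100 nM libraries and 1265 ± 118 FPKM in the DMSO libraries, and HBZ, an embryonic globin gene, averaged 255 ± 59.2 FPKM in the 100 nM libraries and 318 ± 44.1 FPKM in the DMSO libraries. Their log2 changes were 0.01 and -0.33. Of 18 red cell surface and membrane genes none was called, including RHAG (0.06).

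**Figure D4:**
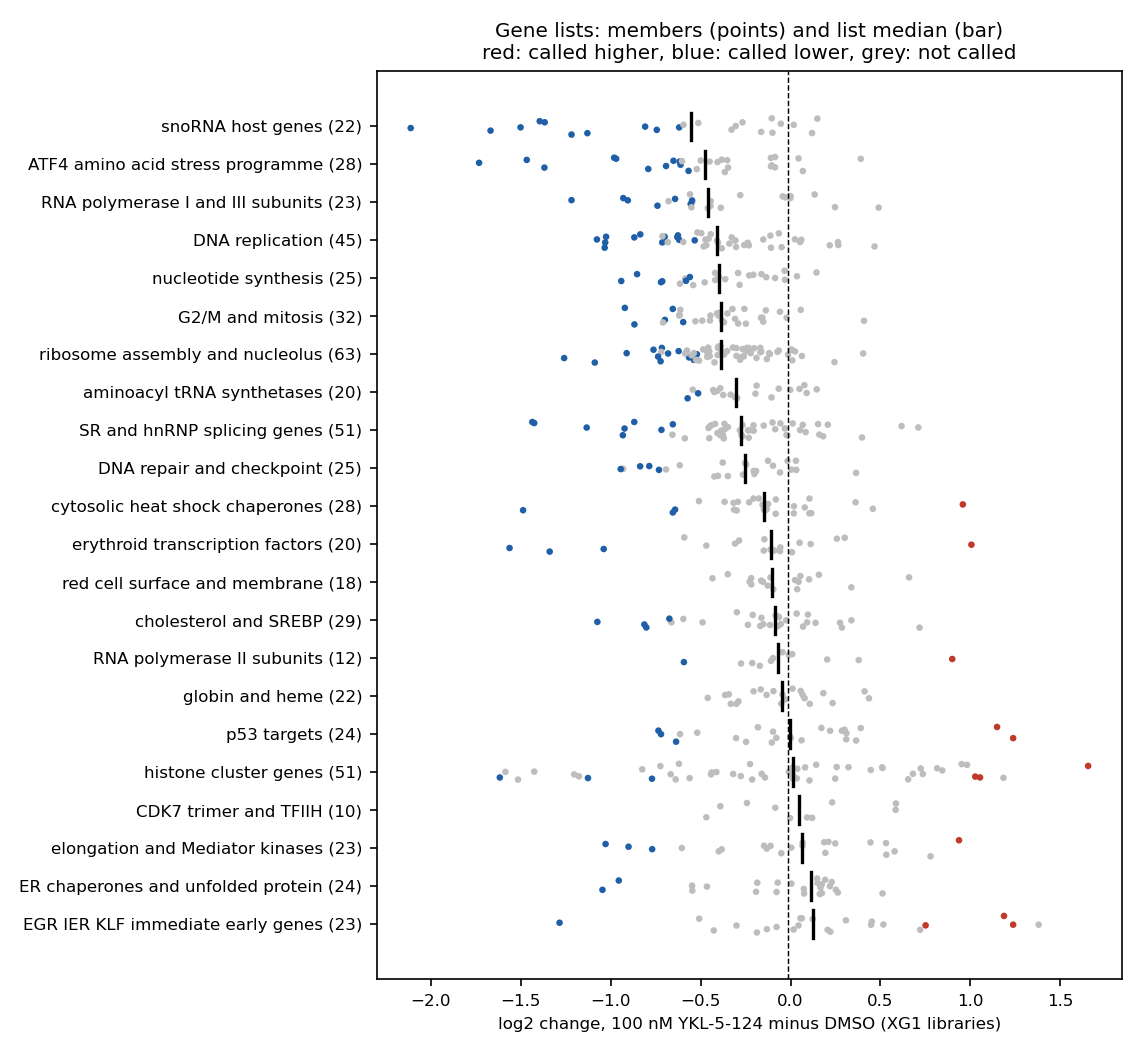
Log2 change (100 nM minus DMSO) of the tested members of 22 gene lists (points, number tested in parentheses), with the list median as a black bar and the median of all genes as a dashed line. The median of the snoRNA host genes is at -0.55 and that of the amino acid stress programme at -0.47, while the globin and heme list, with no called member, is at -0.05.

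Lipid and interferon genes held a few stable falls. SQLE, an oxygenase of cholesterol synthesis, had 17.4, 22.2 and 22.2 FPKM in the 100 nM libraries, against 48.2, 40.96 and 43.7 FPKM in the DMSO libraries, with log2 change -1.07 ± 0.20, adjusted p = 0.00234. Its groups did not overlap. Of 29 cholesterol and SREBP genes 4 fell (13.8%, beside 3.98% of all genes) and none rose, and the other 3 calls, INSIG1 and DHCR7 among them, were not stable. This count was 1 without DMSO replicate 1 and 2 without 100 nM replicate 1 or DMSO replicate 2. IFIT3, an interferon-induced gene, fell by 1.20 on the log2 scale and was below 1 FPKM in all 3 100 nM libraries. Of 26 interferon and STAT genes 2 fell (7.69%, beside 3.98% of all genes) and none rose. The number was 1 without 100 nM replicate 1 or 3 or DMSO replicate 1 or with only the 6 libraries in the fit or with a minimum mean of 5 FPKM and 4 after median centring or after quantile normalization. Of 46 proteasome genes 3 fell (6.52%, beside 3.98% of all genes), with the assembly chaperone gene PSMG4 (-0.84) stable. The number was 1 without 100 nM replicate 1 or 3 or DMSO replicate 1 or 2. None of 15 NF-kappaB genes and none of 16 circadian clock genes was called. Of 20 glycolysis genes 2 fell (10%, beside 3.98% of all genes), neither stable (called were 0 without 100 nM replicate 1, 2 or 3 or DMSO replicate 1 or 2 or with only the 6 libraries in the fit or with low genes kept in the test or with a pseudocount of 5 and 1 without DMSO replicate 3 or with spike-in scaling). Of 29 autophagy and lysosome genes 2 rose (6.9%, beside 2.63% of all genes), ATG4D (0.75) and ATG2A (0.64), neither stable (called were 0 without 100 nM replicate 1 or DMSO replicate 1, 1 without 100 nM replicate 3 or DMSO replicate 2 or 3 or with low genes kept in the test, 4 after median centring and 10 after quantile normalization).

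Among the largest stable rises of genes averaging at least 10 FPKM in a group were genes without a common list. Those given here reached 10 FPKM on average only in the 100 nM group, so the choice itself favours low DMSO values. KRCC1 had 9.60, 9.72 and 11.04 FPKM in the 100 nM libraries, against 0.372, 0.928 and 0.646 FPKM in the DMSO libraries. SMIM14, a small membrane protein, had 9.65, 12.5 and 11.7 FPKM in the 100 nM libraries, against 2.03, 2.001 and 1.25 FPKM in the DMSO libraries. CCDC92 had 14.5, 12.3 and 15.1 FPKM in the 100 nM libraries, against 3.54, 2.34 and 1.52 FPKM in the DMSO libraries. In these 3 genes the DMSO values were at or below 3.54 FPKM and the 100 nM values above it, a gap in part set by the choice (log2 change 2.77 ± 0.33, adjusted p = 6.03e-05 for KRCC1, log2 change 2.16 ± 0.23, adjusted p = 1.02e-05 for SMIM14 and log2 change 2.15 ± 0.23, adjusted p = 9.88e-06 for CCDC92). OPN3, a light receptor family member, had 16.9, 11.1 and 12.3 FPKM in the 100 nM libraries, against 3.72, 4.03 and 3.48 FPKM in the DMSO libraries. PSKH1, a serine kinase, had 27.7, 20.2 and 21.9 FPKM in the 100 nM libraries, against 8.03, 10.7 and 8.84 FPKM in the DMSO libraries. OPN3 (log2 change 1.59 ± 0.18, adjusted p = 2.25e-05) and PSKH1 (log2 change 1.25 ± 0.22, adjusted p = 0.00154) were higher in all 3 libraries at 100 nM. UCN, a stress neuropeptide of the CRH family, rose by 1.52 on the log2 scale.

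Genes named as antisense transcripts rose more often than they fell. Of 277 tested 19 rose (6.86%, beside 2.63% of all genes) and 8 fell (2.89%, beside 3.98% of all genes), 9 and 1 of them stable, with a median of 0.10. Genes averaging under 5 FPKM, of any name, rose in 3.29% and fell in 1.7%. ZBED5-AS1 had 24.1, 18.01 and 18.6 FPKM in the 100 nM libraries, against 5.82, 6.07 and 5.83 FPKM in the DMSO libraries, with log2 change 1.61 ± 0.28, adjusted p = 0.00146. Its 100 nM values all lay above its DMSO values. ST3GAL4-AS1 (1.61) and ZNF213-AS1 (1.29) were also stable rises. Since the strand setting of the counting is not given, such reads cannot be told apart from those of the gene on the other strand. The antisense rises numbered 11 without 100 nM replicate 2 or with a minimum mean of 5 FPKM and 30 after median centring or after quantile normalization. The antisense falls numbered 2 without DMSO replicate 1, 4 with low genes kept in the test or with a minimum mean of 5 FPKM, 5 without 100 nM replicate 1 or 3 or DMSO replicate 2 or 3 or with only the 6 libraries in the fit and 13 after median centring or after quantile normalization. Of 315 numbered zinc finger genes 8 rose (2.54%) and 6 fell (1.9%), beside 2.63% and 3.98% of all genes. The zinc finger rises numbered 1 without DMSO replicate 2, 2 without 100 nM replicate 2 or with low genes kept in the test or with a minimum mean of 5 FPKM, 3 without 100 nM replicate 1 or DMSO replicate 3, 4 without 100 nM replicate 3 or DMSO replicate 1, 5 with only the 6 libraries in the fit or with a pseudocount of 0.1, 18 after median centring and 24 after quantile normalization. The falls in this family numbered 1 without 100 nM replicate 1 or DMSO replicate 2, 2 without 100 nM replicate 3 or with low genes kept in the test, 3 without DMSO replicate 1 or with a minimum mean of 5 FPKM, 11 without 100 nM replicate 2, 14 after median centring and 19 after quantile normalization.

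Other stable falls left TEX19 and CDK3 with averages under 1 FPKM and GBGT1 with one under 3 FPKM at 100 nM. TEX19, a germ cell gene, had 0.377, 0.436 and 1.11 FPKM in the 100 nM libraries, against 5.84, 5.39 and 5.53 FPKM in the DMSO libraries. CDK3, a cell cycle kinase, had 0.115, 0.124 and 0.132 FPKM in the 100 nM libraries, against 2.41, 3.53 and 2.07 FPKM in the DMSO libraries. GBGT1, a glycosyltransferase of the Forssman antigen, had 3.07, 2.01 and 3.35 FPKM in the 100 nM libraries, against 11.2, 11.8 and 8.03 FPKM in the DMSO libraries. Each fell without overlap (log2 change -2.03 ± 0.20, adjusted p = 8.83e-06 for TEX19, log2 change -1.69 ± 0.21, adjusted p = 5.70e-05 for CDK3 and log2 change -1.58 ± 0.18, adjusted p = 2.43e-05 for GBGT1), and the log2(FPKM + 1) scale understates the changes of low genes.

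Gene length and promoter composition were compared as a description. The median length was 22.5 kb for risers and 20.1 kb for fallers, beside 26.3 kb for all tested genes. Where the average of the group means was at least 10 FPKM, it was 13.5 kb for risers and 17.7 kb for fallers, beside 18.99 kb for all tested genes. The median GC share of the promoter was 65.7% for risers and 63% for fallers, beside 65.3% for all tested genes. A TATA box (TATAAA on either strand) was found in 7.73% of promoters of risers and 8.93% of those of fallers, beside 5.63% of all tested genes, with 21.1% in the host genes of small nucleolar RNAs (4 of 19) and 12.8% in the SR and hnRNP list (6 of 47). Among all promoters of the table the TATA box was in 12%. A GATA site (AGATAA) was in 2 of 16 promoters of the erythroid factors (12.5%), beside 4.98% of all tested genes and 10.5% of all promoters of the table. It was in 7.73% of promoters of risers and 5.96% of those of fallers. These shares are descriptions, with no test.

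The higher dose of 1000 nM was given to 3 further XG1 libraries and was set beside the same DMSO libraries, which the comparisons therefore share. Side by side, SNHG12 changed by -2.11 at 100 nM and -2.41 at 1000 nM, KLF1 by -1.56 at 100 nM and -1.92 at 1000 nM, SRSF3 by -1.44 at 100 nM and -1.57 at 1000 nM, DDIT4 by -1.47 at 100 nM and -1.72 at 1000 nM, UNG by -0.94 at 100 nM and -1.59 at 1000 nM and POLR2A by 0.90 at 100 nM and 0.86 at 1000 nM log2. The difference between doses was tested itself. At 1000 against 100 nM limma called 17 of 12204 genes (0.139%), 17 lower and 0 higher, with 1929 genes lower and 66 higher at an unadjusted p under 0.05. The genes named next were called at 100 nM, and the 100 nM libraries enter both their choice and the difference. They were OR2B6 (-1.95 ± 0.30, adjusted p = 0.0185), RFC4, a subunit of the clamp loader (-0.92 ± 0.18, adjusted p = 0.0435), C1GALT1C1L (-0.87 ± 0.15, adjusted p = 0.0193), ING3, a chromatin reader (-0.79 ± 0.16, adjusted p = 0.0435), and UBE2T, a ubiquitin-conjugating enzyme of DNA repair (-0.73 ± 0.14, adjusted p = 0.0396). OR2B6 averaged 1.03 ± 0.888 FPKM in DMSO, 5.17 ± 2.14 FPKM at 100 nM and 0.599 ± 0.578 FPKM at 1000 nM, and RFC4 averaged 29.9 ± 4.17 FPKM in DMSO, 19.2 ± 3.89 FPKM at 100 nM and 9.58 ± 0.493 FPKM at 1000 nM. OR2B6 was thus lower at 1000 nM than at 100 nM, as was RFC4. The count of dose differences was 0 after median centring, 1 without 1000 nM replicate 2 and 310 without 1000 nM replicate 3, and the median log2 difference of all genes was -0.18.

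AMO1 was given the same dose for the same time and shares no library with XG1. There 268 genes (2.2%) were called at 100 nM, 53 higher (0.434%) and 215 lower (1.76%). Of the 486 genes that fell in the XG1 libraries 84 fell and 0 rose in AMO1, with a median of -0.40, and 88.5% had negative changes, beside 65.5% of all genes. Of the 321 that rose 28 rose and 0 fell in AMO1, with a median of 0.16, and 74.8% had positive changes, beside 34.5% of all genes. SNHG12 averaged 18.8 ± 3.69 FPKM at 100 nM and 70.9 ± 10.1 FPKM in DMSO in AMO1, and HNRNPDL averaged 49.96 ± 4.61 FPKM at 100 nM and 150.4 ± 33.1 FPKM in DMSO. Both fell in AMO1 too (log2 change -1.86 ± 0.20, adjusted p = 2.75e-05 for SNHG12 and log2 change -1.55 ± 0.15, adjusted p = 9.91e-06 for HNRNPDL), as did MYB (log2 change -1.05 ± 0.19, adjusted p = 0.00475) and HERPUD1 (log2 change -1.04 ± 0.17, adjusted p = 0.00180). POLR2A (log2 change 1.63 ± 0.18, adjusted p = 2.41e-05), GDF15 (log2 change 1.87 ± 0.20, adjusted p = 2.20e-05) and HIST2H2BE (log2 change 1.99 ± 0.21, adjusted p = 2.20e-05) rose in AMO1. DDIT4 (log2 change -0.19 ± 0.22, adjusted p = 0.771), ATF4 (log2 change -0.51 ± 0.20, adjusted p = 0.204), DDIT3 (log2 change -0.10 ± 0.14, adjusted p = 0.846) and HSPA5 (log2 change -0.26 ± 0.17, adjusted p = 0.506) were not called there, and the difference of the lines' responses was not called for these 4 genes either (adjusted p between 0.0966 and 0.298).

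**Figure D5:**
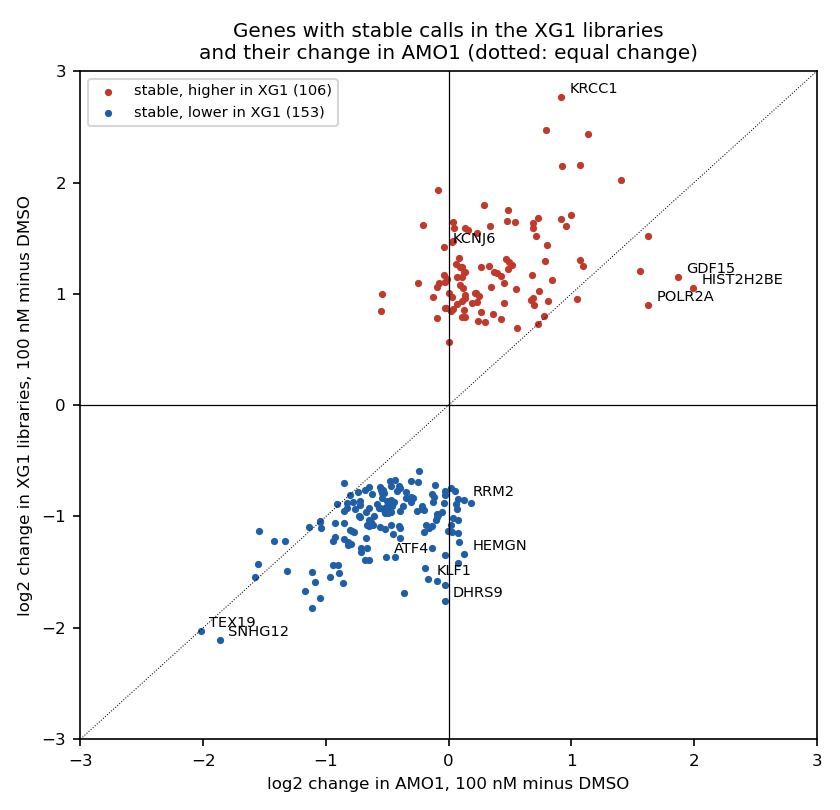
Genes with stable calls in the XG1 libraries, with their log2 change at 100 nM minus DMSO in XG1 on the y axis and in AMO1 on the x axis (red: 106 higher in XG1, blue: 153 lower in XG1, 2 small RNA genes outside the range). Of the 153 fallers 137 have negative changes in AMO1, and genes far from the dotted line of equal change include DHRS9 and HEMGN.

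The difference between the lines' responses at 100 nM was called for 19 genes (0.156%), 11 higher (0.0901%) and 8 lower (0.0656%) in XG1 than in AMO1. Several of these genes were near the lowest values of the tables in AMO1, where a fall could not be seen. HEMGN averaged 0.254 ± 0.117 FPKM at 100 nM and 0.146 ± 0.0580 FPKM in DMSO in AMO1 and DHRS9 averaged 0.0901 ± 0.0168 FPKM at 100 nM and 0.114 ± 0.0205 FPKM in DMSO there. RRM2 and CYB561D2 were expressed in both lines. RRM2 averaged 199 ± 10.9 FPKM at 100 nM and 184 ± 31.3 FPKM in DMSO in AMO1, where it was not called (log2 change 0.13 ± 0.14, adjusted p = 0.744), and the difference of responses was -0.98 ± 0.19 (adjusted p = 0.0483). CYB561D2 averaged 5.61 ± 0.621 FPKM in the 100 nM libraries and 13.6 ± 0.729 FPKM in the DMSO libraries of XG1, and 21.2 ± 1.29 FPKM at 100 nM and 20.1 ± 2.22 FPKM in DMSO in AMO1, and the difference of responses was -1.23 ± 0.25 (adjusted p = 0.0486). Between 3 and 35 genes were called for this difference when 1 library was left out, namely 3 without AMO1 DMSO replicate 2 or AMO1 100 nM replicate 1 and 35 without AMO1 DMSO replicate 3. The split into higher and lower moved with the scaling, with 13 higher and 53 lower after median centring, 33 and 43 after quantile normalization and 9 and 3 with spike-in scaling.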

How the data were processed

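Per the labels' protocols the cells were lysed in TRIzol, columns yielded the RNA, and QuantSeq gave the libraries. HISAT2, Cuffnorm and build hg19 stand in the submitters' processing notes. Their versions, the annotation, the strand setting and any use of the spike-ins for scaling are in none of the sources used here. The deposited values are taken as FPKM from the name of Cuffnorm, since the file headers say only that they are expression. Dividing by transcript length does not suit 3′ end reads, so levels of different genes were set side by side only as classes and medians of the deposited values.

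Groups came from the labels. Of 26249 genes, 12204 reached a group mean of 1 FPKM in any of 6 groups and were tested. The model was a trended, robust limma fit (limma 3.58.1 in R 4.3.3, statmod 1.5.0) to log2(FPKM + 1) of the 18 libraries with a mean for each group, and tests were two-sided at a threshold of 0.05. The fit was tested on simulated data. Log2 values correlated at 0.959 to 0.972 within groups, and no library pair held identical values. Spike-in deviations were -0.08 to -0.01 log2 in the 100 nM libraries and -0.03 to 0.01 in the DMSO libraries. The summed values of all genes were less even, at 806990 to 859055 in the 100 nM libraries and 771880 to 957143 in the DMSO libraries. Whether the deposited values had been scaled to the spike-ins was not tested.

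Alternatives were other pseudocounts, filters, scalings and fits, and leaving out each library. The members, the 45 gene lists and the naming rule were chosen with earlier results of these data known. Named were the largest stable rises and falls, up to 6 called members per list and direction, 11 set genes, and the largest differences in the other contrasts. Small RNA, pseudogene and uncharacterised symbols were counted but not named, and a few other genes are not reported here. List members given with values that were not called were chosen after their values were seen. Promoters were matched to 11981 tested genes by symbol where RefSeq listed one.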

Additional observations from a re-analysis of the deposited data

Results flagged for a closer look

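The response at 100 nM differed between the lines, by an interaction test in limma over all 12204 genes, for 11 of the genes named here, all of which were called in the XG1 libraries. The genes were picked for their change in XG1, so the size of their difference carries that choice. Lower in XG1 than in AMO1 by this difference were DHRS9, a retinol dehydrogenase, at -1.73 ± 0.27 (adjusted p = 0.0152), GBGT1 at -1.49 ± 0.26 (adjusted p = 0.0164), HEMGN at -1.47 ± 0.29 (adjusted p = 0.0483), C1orf186 at -1.31 ± 0.25 (adjusted p = 0.0436), CYB561D2 at -1.23 ± 0.25 (adjusted p = 0.0486) and RRM2 at -0.98 ± 0.19 (adjusted p = 0.0483) log2. DHRS9, GBGT1, HEMGN and C1orf186 averaged under 1 FPKM in AMO1 under both treatments, and C1orf186 averaged 0.0904 ± 0.0169 FPKM at 100 nM and 0.115 ± 0.0196 FPKM in DMSO there.

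Higher in XG1 than in AMO1 were LBX2 at 1.54 ± 0.25 (adjusted p = 0.0164), the potassium channel gene KCNJ6 at 1.45 ± 0.25 (adjusted p = 0.0164), WDR78 at 1.43 ± 0.25 (adjusted p = 0.0164), HCG27 at 1.39 ± 0.26 (adjusted p = 0.0310) and FAM174A at 1.35 ± 0.23 (adjusted p = 0.0164) log2. FAM174A averaged 6.77 ± 0.728 FPKM in the 100 nM libraries and 2.65 ± 0.591 FPKM in the DMSO libraries, and in AMO1 it averaged 22.3 ± 1.43 FPKM at 100 nM and 26.7 ± 1.95 FPKM in DMSO. LBX2, KCNJ6, WDR78 and HCG27 averaged under 4 FPKM in all 4 groups.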

How the results depend on the processing

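For 100 nM against DMSO the 807 calls became 1499 (611 higher, 888 lower) after median centring, 1878 (892 and 986) after quantile normalization and 486 (205 and 281) with the replicate block, and lay between 396 and 613 when 1 library was left out. Deviations of same-numbered XG1 libraries correlated at -0.052, 0.026 and -0.015. These values show no shared effect of the replicate number, but they cannot tell whether same-numbered libraries were handled as pairs. For 1000 against 100 nM the 17 calls became 31 with a minimum mean of 5 FPKM, 60 with a pseudocount of 5, 0 after median centring, 10 after quantile normalization, 32 with spike-in scaling, 4 with the replicate block and 2 with only the libraries compared, and lay between 1 and 310 when 1 library was left out. For the difference of the lines' responses the 19 calls became 4 with a minimum mean of 5 FPKM, 6 with a pseudocount of 0.1, 67 with a pseudocount of 5, 10 without the filter, 66 after median centring, 76 after quantile normalization, 12 with spike-in scaling and 1 with the replicate block, and lay between 3 and 35 when 1 library was left out. The causes were not tested. Of 2805 values of the 177 called genes that the naming rule chose, 2320 kept their call and direction and 485 lost the call. CCNH, not called, lay between -0.0143 (without DMSO replicate 3) and 0.27 (without 100 nM replicate 1) when 1 library was left out, and was at -0.0027 without 100 nM replicate 2. The unknown depth limits what can be said of genes near the lowest values.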
